A study of Mus musculus with 4 samples.

Results

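The respiratory chain genes of the nucleus encode the subunits of the 4 electron transport complexes of the mitochondrion and of ATP synthase. They were taken as every gene whose array annotation gives a single symbol of the families Nduf, Sdha to Sdhd, Uqcr, Cyc1, Cox4 to Cox8 or Atp5, and each gene was read from its brightest probe set over the 4 arrays. This gave 85 genes of the 12393 on the array, read by 157 probe sets in all. They hold 33 genes of complex I, 4 of complex II, 9 of complex III, 17 of complex IV, 17 of complex V and 5 assembly factors of complex I whose symbols begin with Nduf. Of the 85 genes, 81 were bright enough to be tested, among 7514 genes tested.

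The cells were NF639, a mouse mammary tumour line from a tumour driven by the ErbB2 oncogene. The tested cells were an EGCG-resistant pool of this line, and the comparison was with its original population, each measured on 2 Affymetrix Mouse 430A 2.0 arrays. EGCG is epigallocatechin 3-gallate, the main polyphenol of green tea. Both groups are the same cell line; the resistant cells are 1 pool, so its arrays measure that pool and not several selections. Per the study's design text the RNA came from 2 independent experiments, and the labels do not say whether EGCG was present when the cells were harvested. No label ties an array to an experiment.

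Complex I passes electrons from NADH, and complex II passes them from succinate, to coenzyme Q. Complex III hands them to cytochrome c, complex IV passes them to oxygen, and the proton gradient that complexes I, III and IV build drives ATP synthesis by complex V. The subunits are encoded in part by the mitochondrial and in part by the nuclear genome, and the nuclear genes are spread over most chromosomes. Factors known to act at many of their promoters include NRF1, the ETS factor GABPA, YY1 and the oestrogen-related receptors.

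The values are MAS5 signals, in arbitrary units of brightness, and the deposited arrays share a trimmed mean of 500.2. A global change in RNA per cell would therefore not appear, and in a bulk sample fewer cells of a type and less RNA per cell cannot be told apart. Differences are given as log2, resistant pool minus original population, on the scale log2(signal + 3). Levels of different genes are not compared, because each probe set has its own brightness. Of 13 epithelial markers, Erbb2 alone was above the filter on dim probe sets, at 281.9 and 328 in the resistant pool against 321.3 and 301.4 in the original population; keratin 8, keratin 18, keratin 19, Epcam and Cdh1 were below it. Of 8 fibroblast markers 5 were tested. The summed signal of all 8 was 5565 and 4789 in the resistant pool against 5964 and 5242 in the original population. Col1a2 was the largest part of that sum on each array. Col3a1, a fibrillar collagen, was higher by 1.99 (adjusted p = 0.0477, limma), and Col1a1 and Pdgfra lay higher, by 0.99 and 0.72. Col1a2 and Dcn lay lower, at -0.62 and -2.15. The last 4 were not called in that fit. All 5 were called with the replicate number as a term, at adjusted p from 4.17e-22 to 0.0139 in limma. With that term 2.87% of all genes tested were called higher and 3.19% lower. The prior degrees of freedom of that fit were infinite. Its p-values thus rest on the spread of genes of like brightness and not on that of each gene's own arrays. Of 7 leukocyte markers 3 were above the filter. These were Cd68, Csf1r and Lyz2, with overlapping arrays and differences of 0.08, -0.18 and -0.17. Endothelial markers were below the filter in 5 of 5 cases, and the part of any cell type marker in the results below was not tested. The ratio of the 3′ to the 5′ probe set of beta-actin was 1.24 and 1.13 in the resistant pool against 1.17 and 1.16 in the original population. The controls spiked into each hybridisation (BioB, BioC, BioDn) separated the arrays by their replicate number. They were 1.48 to 2.29 times brighter on array 2 than on array 1 of the resistant pool and 1.39 to 2.11 times in the original population. Between groups, at the same number, the ratios were 0.937 to 1.14. Differences are therefore also given within each replicate number and with the number as a term of the fit, although no label names a batch.

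Respiratory chain transcripts differed little between the resistant pool and the original population. None of the 81 tested members was called by limma at an adjusted p under 0.05, while 0.319% of all genes tested were (24 genes). At an unadjusted p under 0.05 there were 3 members, Ndufa6, Ndufc1 and Cox8c, against 8.08% of all genes. The median difference of the members was 0.06, with quartiles of -0.05 and 0.19, and 56 of 81 lay above 0 (69.1%). Over all genes tested the median was 0.02, with quartiles of -0.16 and 0.19, and 52.7% lay above 0. The members thus sat in a narrow band around a value close to 0. They were also measured more precisely, with a median standard error of 0.171 against 0.222 over all genes tested. The spreads of the 2 sets are therefore not directly comparable.

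**Figure D1:**
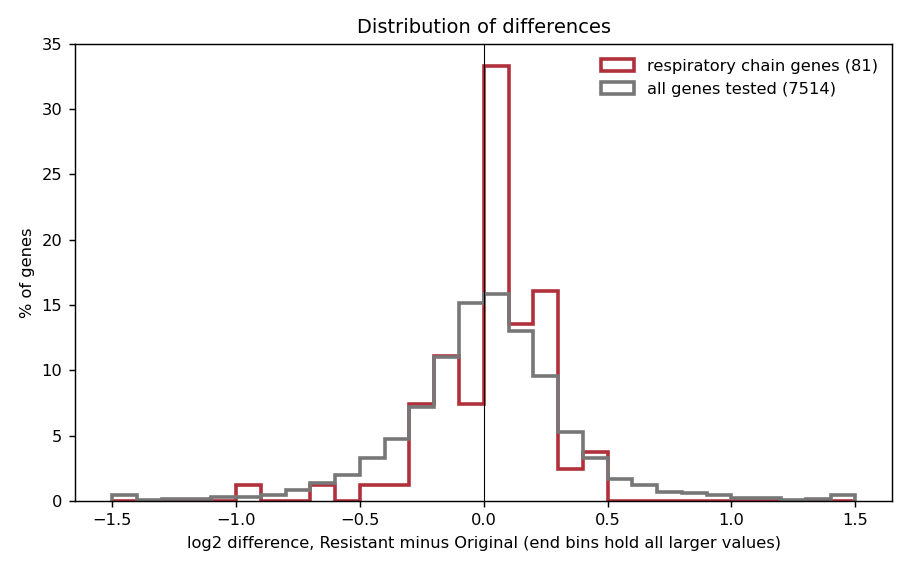
Distribution of log2 differences, resistant pool minus original population, for the 81 tested respiratory chain genes and for all 7514 genes tested, as a percentage of each set in bins of 0.1. Most members lie between -0.3 and 0.5, and 2 cytochrome oxidase isoforms, Cox6a2 and Cox8c, lie apart on the low side.

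The precision of the arrays bounds most members. For 77 of the 81 (95.1%) the 95% interval of the difference lay inside a 2-fold change either way, against 78.7% of all genes tested. The 4 exceptions were Cox6a2, Cox7c, Cox8c and Ndufs5, which were among the dimmer probe sets of the members. The arrays of the groups did not overlap, with the resistant pool higher, in 22 members (27.2%), against 19.9% of all genes, and with the resistant pool lower in 11 members (13.6%), against 17.4% of all genes. The median of the members was 0.10 within replicate number 1 and 0.03 within number 2. Arrays of the same group differed as much: the median of array 2 minus array 1 was 0.05 in the resistant pool and 0.12 in the original population. Without the first array of the original population the median was -0.02, and without the second it was 0.14.

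**Figure D2:**
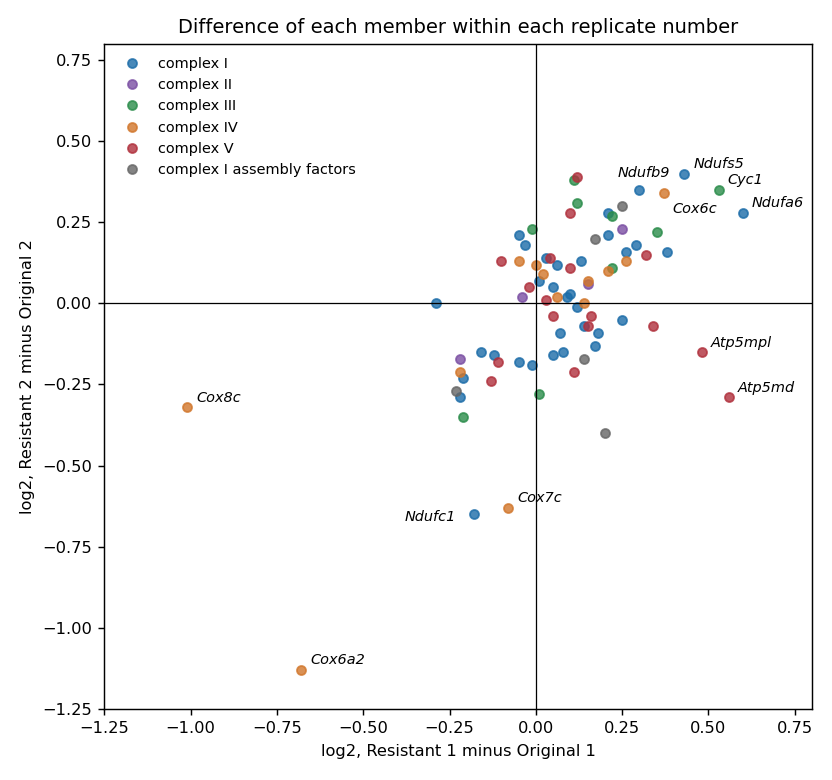
Difference of each tested member within replicate number 1 (horizontal axis) and within number 2 (vertical axis), as log2 of resistant pool over original population, coloured by complex. In 38 of 81 members both values were above 0 and in 17 both were below; Cyc1, Cox6c, Ndufa6, Ndufb9 and Ndufs5 sit at the upper right and Cox6a2, Cox8c and Ndufc1 at the lower left.

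Complex I was measured through 6 core subunits, among them those that carry the flavin and iron-sulphur clusters, and 27 accessory subunits. Its median difference was 0.05, with 22 of 33 genes above 0. In 11 genes the resistant arrays lay above the original ones without overlap (33.3%, against 19.9% of all genes), and in 5 they lay below (15.2%, against 17.4%). The core subunits had a median of 0.03 and ran from -0.22 in Ndufs8 to 0.13 in Ndufs1. Ndufv1, the subunit that binds NADH and flavin, had signals of 2217 and 2385 in the resistant pool against 2478 and 2656 in the original population. The groups did not overlap, but the difference of -0.16 (95% interval -0.52 to 0.20) was not called. The other probe sets of Ndufv1 gave -0.31 and -0.46, also without overlap and without a call.

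Among the accessory subunits, Ndufa6 stood highest. Its signals were 1955 and 1874 in the resistant pool against 1288 and 1542 in the original population. Both resistant arrays exceeded both original arrays, by 0.60 within number 1 and 0.28 within number 2. The fitted difference was 0.44 (95% interval 0.06 to 0.83, SE 0.173), with an adjusted p of 0.576 in limma. Ndufb9, an accessory subunit of the membrane arm, had 7071 and 7145 in the resistant pool against 5723 and 5595 in the original population. These groups were far apart relative to their spread, at 7108 ± 52.3 against 5659 ± 90.8 (SD, n = 2 each). The difference was 0.33 (95% interval -0.03 to 0.68; adjusted p = 0.701, limma), and its other probe set gave 0.35. Ndufs5 had 215.7 and 192.1 in the resistant pool against 159 and 145 in the original population. It differed by 0.42 without overlap, yet at this brightness the interval was wide, from -0.19 to 1.02.

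Accessory subunits also lay at the low end. Ndufc1 had 1968 and 1632 in the resistant pool against 2223 and 2558 in the original population. The resistant arrays were the lower in both numbers, at -0.18 and -0.65, and a further probe set gave nearly the same difference (-0.40 against -0.41). The adjusted p of Ndufc1 was 0.635 in limma. Ndufb5 had 2447 and 2351 in the resistant pool against 2850 and 2883 in the original population. Its difference of -0.26 (95% interval -0.61 to 0.10) was alike within the numbers, at -0.22 and -0.29. The other accessory subunits ran from -0.14 in Ndufa9 and Ndufb8 to 0.27 in Ndufb3. ND5, a complex I subunit of the mitochondrial genome that the array carries and that was picked after its values were seen, had 12302 and 8764 in the resistant pool against 10794 and 8163 in the original population. Its groups overlapped, and its difference was 0.15 (95% interval -0.33 to 0.62).

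**Figure D3:**
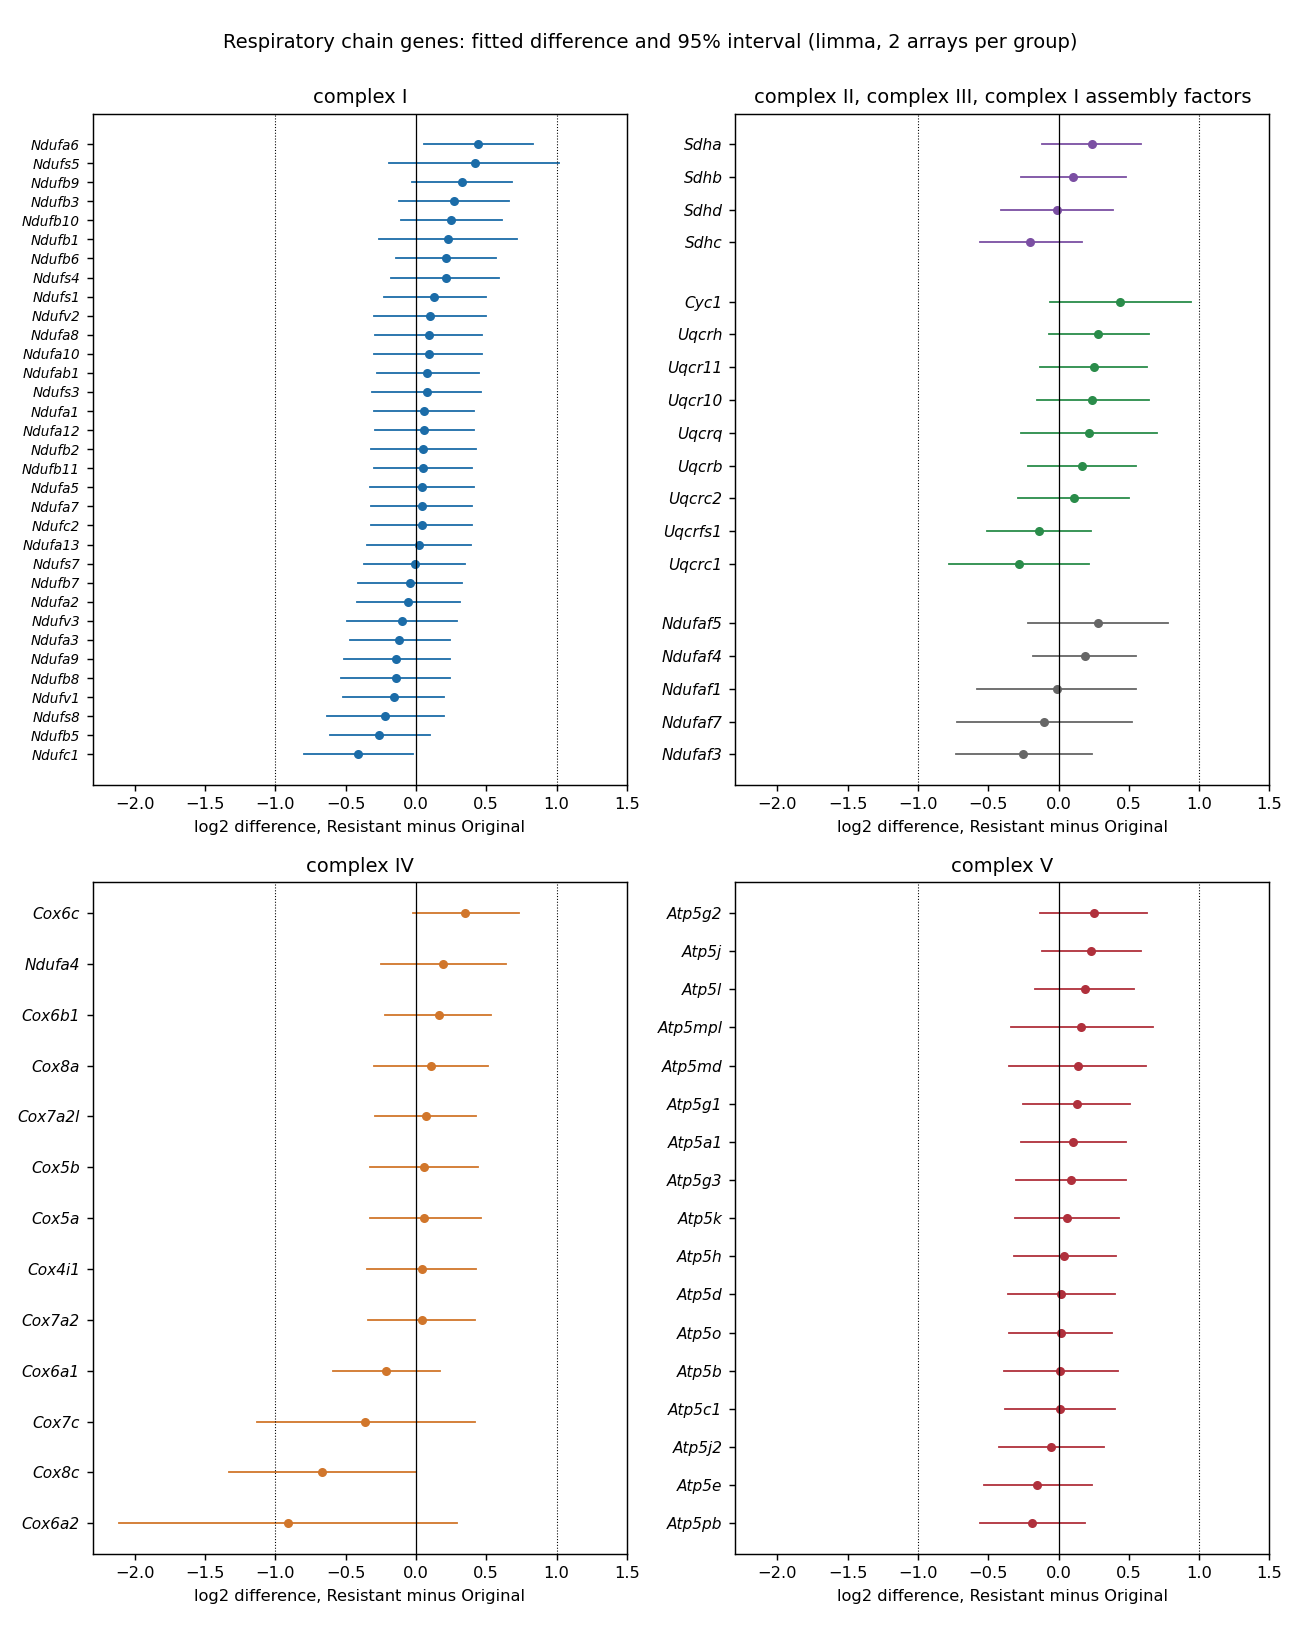
Fitted log2 difference, resistant pool minus original population, with its 95% interval from limma for each of the 81 tested members, by complex (2 arrays per group). The dotted lines mark a 2-fold change; 77 intervals lie between them, and in complex IV Cox6a2 and Cox7c have the widest.

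The promoters of 4 of these genes that lie on chromosomes 15 and 3 are shown because the members of those chromosomes differed together, as set out further on. The sequences are RefSeq promoters of GRCm38.p6, from 250 bases before to 50 after the gene start, written on the strand of the gene. Capitals mark the letters GCGCATGC (an NRF1 site) or AAGATGGCG (a YY1 site) or their reverse complements. Ndufa6 and Atp5g2, a gene of complex V, lay higher in the resistant pool, and Ndufc1 and Ndufb5 lay lower.
Ndufa6, chr15:82354242-82354541, minus strand: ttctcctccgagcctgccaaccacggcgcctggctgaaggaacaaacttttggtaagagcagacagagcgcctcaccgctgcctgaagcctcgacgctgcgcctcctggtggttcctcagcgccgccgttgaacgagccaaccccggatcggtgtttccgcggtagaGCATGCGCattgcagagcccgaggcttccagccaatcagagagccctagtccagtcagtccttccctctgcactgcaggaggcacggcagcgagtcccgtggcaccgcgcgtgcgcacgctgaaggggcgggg
Atp5g2, chr15:102670998-102671297, minus strand: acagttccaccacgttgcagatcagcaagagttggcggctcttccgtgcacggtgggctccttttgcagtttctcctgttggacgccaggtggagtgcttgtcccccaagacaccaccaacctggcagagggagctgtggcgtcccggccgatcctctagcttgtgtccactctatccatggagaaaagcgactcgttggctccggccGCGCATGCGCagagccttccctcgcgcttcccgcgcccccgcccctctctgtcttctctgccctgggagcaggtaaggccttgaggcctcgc
Ndufc1, chr3:51408906-51409205, minus strand: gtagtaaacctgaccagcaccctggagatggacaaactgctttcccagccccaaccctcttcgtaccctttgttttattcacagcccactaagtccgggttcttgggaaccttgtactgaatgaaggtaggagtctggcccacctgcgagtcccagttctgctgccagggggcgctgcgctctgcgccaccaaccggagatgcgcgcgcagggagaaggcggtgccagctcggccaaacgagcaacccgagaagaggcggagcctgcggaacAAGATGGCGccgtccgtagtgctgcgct
Ndufb5, chr3:32736813-32737112, plus strand: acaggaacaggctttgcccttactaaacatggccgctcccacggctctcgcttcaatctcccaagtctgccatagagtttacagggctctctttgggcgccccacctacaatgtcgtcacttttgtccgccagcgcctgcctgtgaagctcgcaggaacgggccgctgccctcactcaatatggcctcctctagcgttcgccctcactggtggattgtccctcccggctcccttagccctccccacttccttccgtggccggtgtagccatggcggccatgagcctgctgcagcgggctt

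In these windows Ndufa6 held an NRF1 motif at base 168, Atp5g2 held overlapping NRF1 motifs at bases 209 and 211, and Ndufc1 held a YY1 motif at base 273. Ndufb5 held none of the motifs searched. Neither did Atp5pb, the other tested member of chromosome 3, whose promoter is not shown. RefSeq promoters were matched to 70 of the 85 members. Those without one include Cyc1, Cox6c and Ndufb9 of chromosome 15, which differed by 0.44, 0.35 and 0.33. Searched on both strands, the NRF1 letters occurred in 11 of the 70 (15.7%), against 6.88% of the 6174 tested genes with a promoter and 3.05% of all 27025 genes with one. The YY1 letters occurred in 6 members (8.57%), against 4.18% of the tested genes and 1.64% of all genes. The ETS letters CCGGAAGT occurred in 5 members (7.14%), against 10.7% of the tested genes and 4.31% of all genes. The letters TCAAGGTCA of the oestrogen-related receptors occurred in 2 members (2.86%), Atp5g3 and Sdhd, against 0.324% of the tested genes and 0.466% of all genes. A match of letters is a description and not a measured binding site. The 11 members with the NRF1 letters had differences from -0.28 to 0.44, with a median of 0.19. The 56 tested members whose promoter lacked them had a median of 0.04. Ndufa6 and Atp5g2 of chromosome 15 were among the 11, and Cyc1, Cox6c and Ndufb9 were in neither set. A relation of the motifs to the differences was not tested. For YY1 the median of the 6 members was -0.03, against 0.06 in the 61 without.

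Succinate dehydrogenase, which is complex II and also an enzyme of the citric acid cycle, showed no common direction. Sdha, the flavoprotein that oxidises succinate, had 2363 and 2225 in the resistant pool against 1993 and 1902 in the original population. These groups did not overlap, and the difference was 0.24 (95% interval -0.12 to 0.59). Sdhc, a membrane anchor, had 1764 and 1662 in the resistant pool against 2062 and 1866 in the original population. It lay lower without overlap, at -0.20, but a dimmer probe set of Sdhc gave 0.07. Sdhb, the iron-sulphur subunit, differed by 0.10, and Sdhd, the other anchor, differed by -0.01. Both had overlapping arrays, and the adjusted p of the brightest probe set of each of the 4 genes was at least 0.838 in limma. The dimmer probe set of Sdhd gave -0.22 and that of Sdha gave 0.34, each without overlap and without a call.

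Complex III had the highest median of the complexes, 0.22, and 7 of its 9 genes lay above 0. In 3 genes the resistant arrays lay above the original ones without overlap (33.3%, against 19.9% of all genes), and in 0 below, against 17.4% of all genes. The median was 0.12 within number 1 and 0.23 within number 2, while array 2 minus array 1 gave 0.34 in the resistant pool and 0.23 in the original population, so the spread between arrays of a group was as large. Without the first original array the median of complex III was 0.06, and without the second resistant array 0.07.

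Cyc1, the haem-bearing cytochrome c1, had signals of 5555 and 7379 in the resistant pool against 3853 and 5806 in the original population. Array 2 was the brighter in both groups and the groups overlapped, but at each replicate number the resistant array was higher, by 0.53 and 0.35. The fitted difference was 0.44 (95% interval -0.06 to 0.94), with an adjusted p of 0.736 in limma. With the replicate number as a term the adjusted p was 0.0103, which made Cyc1 one of 2 members called in that fit, both higher, against 2.87% of all genes tested called higher and 3.19% called lower. With 1 residual degree of freedom, this fit takes its spread from genes of like brightness. Without the first original array the difference of Cyc1 was 0.14, and without the second it was 0.73. Uqcrh, the hinge subunit, had 3388 and 3369 in the resistant pool against 2656 and 2898 in the original population. Its arrays did not overlap, and it differed by 0.28 (95% interval -0.07 to 0.64; adjusted p = 0.769, limma). Uqcr11 and Uqcr10, small subunits of the complex, also lay higher without overlap, by 0.25 and 0.24. A dimmer probe set of Uqcr10 gave -0.53. The core protein Uqcrc1 and the Rieske iron-sulphur protein Uqcrfs1 were the members below 0, at -0.28 and -0.14, with overlapping arrays.

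In complex IV the genes used in most tissues and the isoforms of particular tissues were measured apart. The 9 ubiquitous subunits had a median of 0.06, and 7 lay above 0. Cox6c had 8904 and 9865 in the resistant pool against 6890 and 7810 in the original population. Both resistant arrays were higher, and the gap was even, at 0.37 and 0.34 within the numbers. The difference was 0.35 (95% interval -0.02 to 0.73), with an adjusted p of 0.701 in limma and of 0.0289 with the replicate number as a term. The dimmer probe set of Cox6c gave 0.24, and its adjusted p with the replicate number was 0.36 in limma. Cox6b1 had 7496 and 7992 in the resistant pool against 6493 and 7432 in the original population, a difference of 0.16 with arrays that lay close but did not overlap. Cox6a1 had 7490 and 8553 in the resistant pool against 8717 and 9884 in the original population. It lay lower without overlap, at -0.21 (95% interval -0.59 to 0.17). Cox4i1, Cox7a2 and Cox8a, the ubiquitous members of isoform pairs, differed by 0.04, 0.04 and 0.11 with overlapping arrays. Cox7c was read by dim probe sets only and differed by -0.36, within an interval from -1.13 to 0.42.

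Of the 6 tissue isoforms, 4 were below the filter and were not tested: Cox4i2, Cox6b2, Cox7a1 and Cox8b, with signals of 1.3 to 41.1 over the 4 arrays. Cox6a2, the isoform of heart and skeletal muscle, had 62 and 24.1 in the resistant pool against 101.3 and 56.6 in the original population. Its groups overlapped, and the difference of -0.91 had an interval from -2.11 to 0.29. Cox8c, an isoform described in testis, had 109 and 148.4 in the resistant pool against 222.7 and 186.5 in the original population. The resistant arrays were the lower, at -1.01 and -0.32 within the numbers, and the fitted difference was -0.67 (adjusted p = 0.66, limma). These were the lowest differences of the tested members, with standard errors of 0.54 for Cox6a2, whose probe set was near the filter, and 0.298 for Cox8c. The summed signal of 8 adipocyte and muscle markers was 877.3 and 880 in the resistant pool against 1405 and 1238 in the original population. Tnnt2 was the largest part of that sum on each array. It had 590.3 and 525.2 in the resistant pool against 1201 and 1020 in the original population. Of the 8 markers 3 were above the filter, with Tnnt2 lower, at -0.99, and Acta1 and Des higher by 1.13 and 1.23. None was called by limma, while Tnnt2 and Acta1 were called with the replicate number as a term (adjusted p = 7.66e-06 and 0.0194). The groups overlapped in Des, at 79.4 and 75.4 in the resistant pool against 11.7 and 77.6 in the original population, so that its difference came from the first original array. Adipoq, Fabp4, Ckm, Myh2 and Myh7 were below it. Their part in the values of Cox6a2 and Cox8c was not tested. Ndufa4, first described with complex I and now placed in complex IV, differed by 0.19, and Cox7a2l, which takes part in joining complexes III and IV into supercomplexes, by 0.07. The arrays of both overlapped between the groups. The other probe sets of Cox7a2l gave 0.24 and 0.20, higher without overlap and without a call.

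ATP synthase had a median of 0.06, with 14 of 17 genes above 0 and a range from -0.19 to 0.25. The median was 0.10 within number 1 and -0.04 within number 2, and without the first original array it was -0.06. The 5 genes of the catalytic F1 head and central stalk had a median of 0.01 and overlapped in each case. The 3 genes Atp5g1, Atp5g2 and Atp5g3 encode the same mature c subunit of the proton-driven ring and differ in their import sequences. Atp5g2 had 6588 and 7974 in the resistant pool against 6051 and 6103 in the original population. It lay higher without overlap, by 0.25 (95% interval -0.13 to 0.63), and its other probe set gave 0.38. Atp5g1 and Atp5g3 differed by 0.13 and 0.09 with overlapping arrays. In the peripheral stalk, Atp5j had 4135 and 3815 in the resistant pool against 3320 and 3433 in the original population, and differed by 0.23. Atp5pb, the b subunit of the stalk, had 5326 and 5819 in the resistant pool against 5841 and 6874 in the original population. The resistant arrays were narrowly the lower, at -0.19 (95% interval -0.56 to 0.19). Atp5l, the g subunit, lay higher by 0.19 without overlap. The small membrane subunits Atp5md and Atp5mpl went opposite ways within the numbers, at 0.56 and -0.29 and at 0.48 and -0.15.

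The assembly factors of complex I are not subunits and had a median of -0.01. Ndufaf5 had 335.9 and 332.9 in the resistant pool against 281.1 and 268.9 in the original population, a difference of 0.28. Ndufaf4 had 2003 and 1911 in the resistant pool against 1780 and 1662 in the original population, a difference of 0.19. Both lay higher without overlap, while Ndufaf3 lay lower, at -0.25, with 341.6 and 307 in the resistant pool against 400.5 and 371.1 in the original population. The adjusted p of each of the 5 factors was at least 0.88 in limma.

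On chromosomes 15 and 3 the members differed the same way as each other and as most other genes of the chromosome. This pattern was noticed after the values were seen and is given as a description. The GRCm38.p6 gene table places 5 tested members on chromosome 15, namely Ndufa6, Cyc1, Cox6c, Ndufb9 and Atp5g2. They come from 4 different complexes, lay between 0.25 and 0.44, and had a median of 0.35. The median was 0.37 within number 1 and 0.35 within number 2, and both members called with the replicate number as a term were among them. The other genes of chromosome 15 lay higher too: 301 genes that are not members had a median of 0.28, and 85.4% of them lay above 0. In 49.2% of these 301 genes the resistant arrays lay above the original ones without overlap, and this held for 4 of the 5 members.

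**Figure D4:**
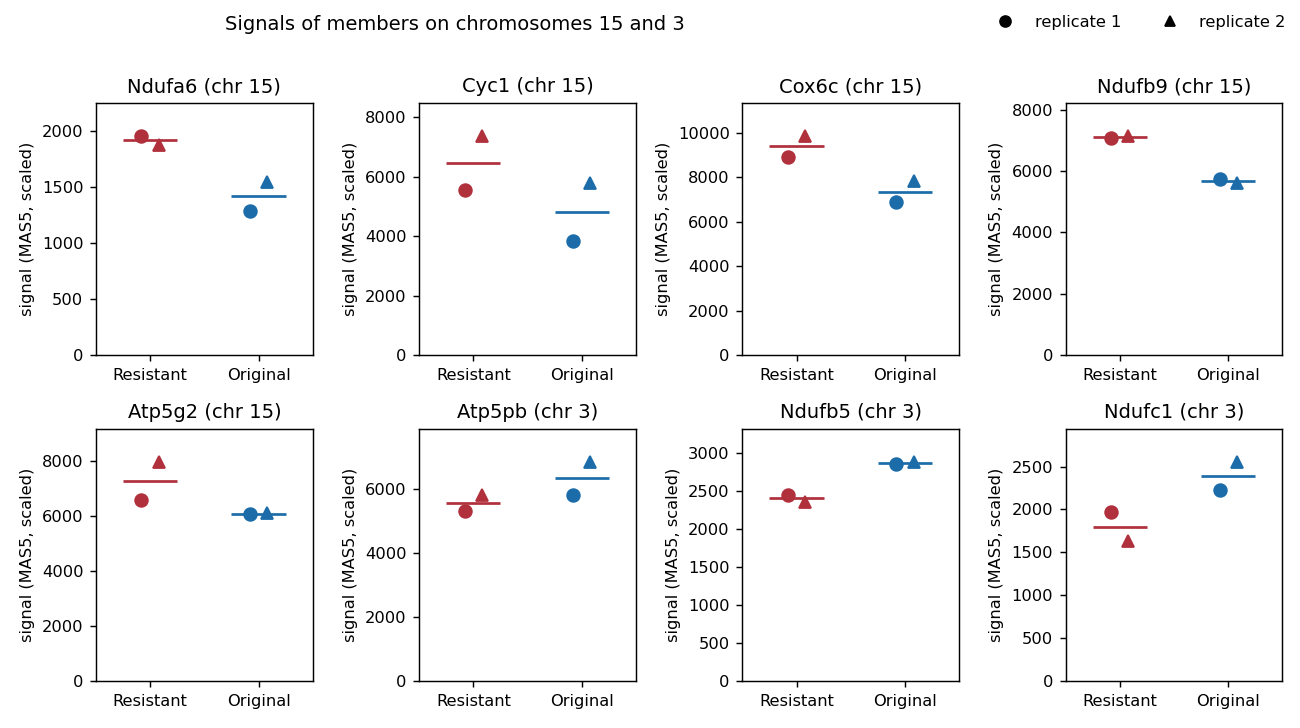
MAS5 signal of the 8 tested members on chromosomes 15 and 3 on each array, resistant pool at the left and original population at the right of each panel; circles are replicate 1, triangles replicate 2, and lines the mean of the group. The 5 members of chromosome 15 have the higher mean in the resistant pool and the 3 members of chromosome 3 the lower; the groups overlap in Cyc1 alone.

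Chromosome 3 lay on the other side of 0. Its 3 tested members, Ndufc1, Ndufb5 and Atp5pb, had a median of -0.26, and the resistant arrays of each lay below the original ones without overlap. The 379 other tested genes of chromosome 3 had a median of -0.30, and 15.3% of them lay above 0; in 56.2% of them the resistant arrays were the lower without overlap, against 17.4% of all genes. The nearest tested genes, up to 10 on each side of a member, had medians from -0.37 around Ndufb5 to -0.29 around Ndufc1 and Atp5pb. Around the members of chromosome 15 these medians ran from 0.26 at Ndufb9 to 0.30 at Atp5g2. On chromosome 19 the 5 members had a median of -0.14, with 2 of them above 0, and the 272 other genes a median of -0.15. Members and other genes lay on opposite sides of 0 on chromosome 1, with medians of 0.09 for the members and -0.06 for the others, and on chromosome 9, with medians of 0.01 and -0.11. On chromosome 5 the medians were -0.05 and -0.02. A shared direction of members was not particular to chromosomes 15 and 3. On chromosome 4 all 5 members lay above 0, with a median of 0.21 against 0.08 for the other genes. On chromosome 11 all 4 lay above 0, with medians of 0.17 and 0.06. The 2 members of chromosome 16 and the 2 of chromosome X also lay above 0.

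**Figure D5:**
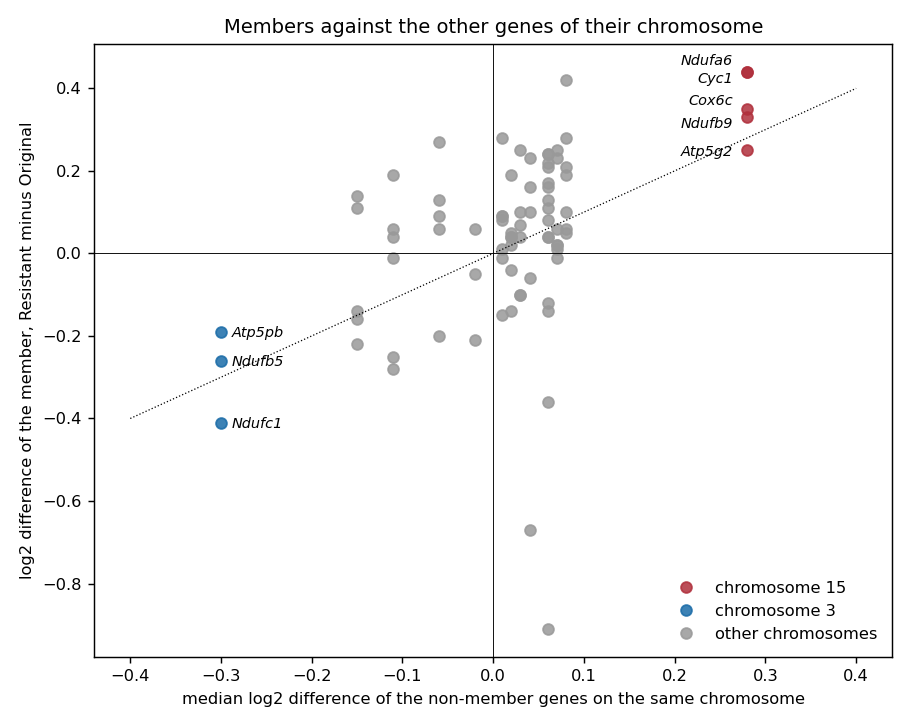
Log2 difference of each of the 81 tested members (vertical axis) against the median difference of the non-member genes on its chromosome (horizontal axis), resistant pool minus original population; the dotted line marks equal values. Members of chromosome 15 (median of the other genes 0.28) and chromosome 3 (-0.30) sit near the line at either end, and the remaining members spread around 0.

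Across the 81 members, the value of a member and the median of the other genes on its chromosome had a Pearson r of 0.47 and a Spearman rho of 0.47. Members of a chromosome share that median and all points share the same 4 arrays. Without the members of chromosomes 15 and 3, r was 0.18 over 73 members. Taken by chromosome, the median of the members and that of the other genes had a Pearson r of 0.89 and a Spearman rho of 0.68 over 19 chromosomes. Over the 17 left without chromosomes 15 and 3, r was 0.68. These member medians rest on 2 to 7 genes each. The 76 tested members that are not on chromosome 15 had a median of 0.06.

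Genes that serve the respiratory chain from outside it also differed little. Cycs, the soluble cytochrome c, differed by 0.19 with overlapping arrays. Of 22 tested assembly genes of complexes III and IV, 0 were called by limma and 0 had an unadjusted p under 0.05. With the replicate number as a term 1 was called lower, against 3.19% of all genes. That gene was Higd1a, a hypoxia-inducible protein of the inner membrane, with 1238 and 1386 in the resistant pool against 1444 and 2507 in the original population. The resistant arrays were the lower, at -0.22 and -0.85 within the numbers, and the second original array stood well above the first. The 20 tested genes of protein import had a median of 0.13 with 17 above 0, and the 74 genes of the mitochondrial ribosome had a median of 0.06 with 42 above 0. Neither list had a gene called by limma or with the replicate number as a term. At an unadjusted p under 0.05 they had 0 and 1, against 8.08% of all genes.

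The regulators of mitochondrial biogenesis had a median of -0.11 over 15 tested genes, with 0 called in either fit. At an unadjusted p under 0.05 there was 1, against 8.08% of all genes. That gene was Tfb1m, a methyltransferase of the mitochondrial ribosomal RNA, with 287.2 and 186.2 in the resistant pool against 344 and 374.7 in the original population (difference -0.63; adjusted p = 0.627, limma). Nrf1 differed by -0.20, Tfam, which packages mitochondrial DNA, by 0.15, and the coactivator Ppargc1b by 0.32; none of these 3 was called, and Ppargc1a was below the filter. Esrra, an oestrogen-related receptor, had 295.9 and 322.6 in the resistant pool against 230.7 and 226.7 in the original population, and Gabpb1, a partner of GABPA, had 297.4 and 271.9 in the resistant pool against 426.1 and 355.2 in the original population. They lay on opposite sides of 0, at 0.43 and -0.45, without overlap and without a call.

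Upstream of the chain, the 13 tested genes of the citric acid cycle had a median of 0.02 and 0 called in either fit, with 0 at an unadjusted p under 0.05. In it Mdh2, malate dehydrogenase, lay higher by 0.28, and Idh3a, a subunit of isocitrate dehydrogenase, lay lower, at -0.26, both without overlap. The 8 tested genes of coenzyme Q synthesis had a median of -0.12, with 4 of 8 (50%) below 0 without overlap, against 17.4% of all genes, and 0 called in either fit or at an unadjusted p under 0.05. The 6 tested carriers and channels had a median of 0.09 and likewise 0 called. Among them Slc25a4, an ADP/ATP carrier of the inner membrane, had 5594 and 6544 in the resistant pool against 6900 and 7768 in the original population, a difference of -0.27 without overlap.

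Larger differences lay in single genes of pyruvate oxidation, mitophagy and antioxidant defence. In these lists of 6, 8 and 6 tested genes limma called 0. At an unadjusted p under 0.05 there were 2, 2 and 1, against 8.08% of all genes. With the replicate number as a term 1 gene of each was called, against 2.87% of all genes called higher and 3.19% lower. The 6 genes of pyruvate oxidation had a median of -0.22. In 4 of them (66.7%) the resistant arrays lay lower without overlap, against 17.4% of all genes. In 1 (16.7%) they lay higher, against 19.9% of all genes. Pdk1, the kinase that inhibits pyruvate dehydrogenase, had 122.4 and 54.4 in the resistant pool against 224 and 311.6 in the original population. It differed by -1.66 (adjusted p = 0.208 in limma, and 3.12e-07 with the replicate number as a term). Bnip3, a mitophagy receptor, had 380.3 and 410.6 in the resistant pool against 725.1 and 1971 in the original population. It differed by -1.59 (adjusted p = 0.193 in limma, and 9.13e-15 with the replicate number as a term), and the second original array stood far above the first. Txn2, the mitochondrial thioredoxin, is a gene of chromosome 15 and had 1599 and 2428 in the resistant pool against 1186 and 1315 in the original population. It lay higher by 0.66 (adjusted p = 0.441 in limma, and 0.002 with the replicate number as a term).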

How the data were processed

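Total RNA of 4 NF639 samples, 2 of the resistant pool and 2 of the original population as the titles give them, was hybridised to 1 array each. The deposited values are signal intensities, made with MAS5 per the submitters' processing notes, which name no version. No counts lie behind them, so precision is limited by the number of arrays.

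Arrays were scaled to a 2% trimmed mean of 500 without control probe sets. The intensities were taken as log2(signal + 3), and probe sets under the 40th percentile of mean signal (52.2) were dropped. limma 3.58.1 in R 4.3.3 (lmFit, eBayes with trend) tested 13576 probe sets, with two-sided p-values adjusted by Benjamini-Hochberg at 0.05; 8.1 prior and 2 residual degrees of freedom gave the intervals. With the replicate number as a term the prior degrees of freedom were infinite. On data simulated with the spread that limma fitted here, the fit recovered 32.52% of 2-fold and 86.42% of 4-fold changes among 13576 probe sets. Of the calls 4.96% were false. These figures assume that model of the spread, and 2-fold was the smallest change simulated. A single symbol was annotated to 20380 probe sets. The 691 with several symbols, 8 of which include a respiratory one, and the 1555 unlisted here were not used for members. All 85 members matched a RefSeq gene ID.

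The members, the lists around them and the motifs were chosen with earlier results of these data known. Members named were those called in either fit, up to 3 in each direction per complex whose arrays did not overlap, and the isoform pairs, c-ring and Sdh genes whatever their test; from other lists, called genes, or otherwise some of those without overlap, and Cycs, Tfam, Nrf1, Ppargc1a and Ppargc1b. Other genes named, the chromosome pattern and the ends of ranges were chosen after their values were seen. The alternatives were quantile normalisation, pseudocounts of 16 and 64, other filters, no variance trend, the replicate number as a term, other choices of probe set and each array left out. Of the members' probe sets, 41 of 85 carry a suffix that marks possible binding of related transcripts. Deviations from the group means correlated at 0.35 between arrays of the same number. The value across numbers, -0.35, is fixed as its negative when a group has 2 arrays. With 2 pairs the correlation does not show that the numbers pair the samples.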

Additional observations from a re-analysis of the deposited data

How the results depend on the processing

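Of the 14 alternatives 13 gave a test, and no member was called under 12 of them. The replicate block called 2 members (Cyc1 and Cox6c), and it called 740 probe sets in all, against 31 in the fit without it. Its prior degrees of freedom were infinite, against 8.1 in the fit without it. The part of this in the number of calls was not tested. Probe sets called numbered 8 with quantile normalisation, 5 without a filter, 11 with a filter at the 60th percentile, 5 without a variance trend, 23 with a filter on mean log2 signal (chosen after seeing the data), and 81 to 125 with an array left out. With an array left out, where the lone array of a group is assumed to vary like the other group, the median of all members was -0.02 to 0.14, of complex I 0.00 to 0.08, of complex II 0.02 to 0.07, of complex III 0.06 to 0.29, of complex IV -0.06 to 0.18 and of complex V -0.06 to 0.15. Probe sets without a cross-binding mark gave complex II 0.10. The medians of the members of chromosomes 15 and 3 kept their signs, at 0.26 to 0.44 and -0.30 to -0.25. No scaling moved the median of all probe sets by 0.1.

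Of 465 alternative values of 34 named members, 13 in 9 members changed sign, none of them called. With an array left out, Cox4i1 ran from -0.11 to 0.19, Cox7a2 from -0.07 to 0.15, Cox8a from -0.05 to 0.27 and Sdhd from -0.15 to 0.13, each of the other sign without the first original or the second resistant array. Without the first original array alone the sign changed in Cox7a2l (-0.01 to 0.15), Ndufa4 (-0.04 to 0.43) and Sdhb (-0.01 to 0.22), and without the second resistant array alone in Atp5g3 (-0.03 to 0.20). The median over probe sets gave -0.14 for Uqcr10. With 2 arrays a group, differences under 2-fold are mostly below what the adjusted test can call, as the simulated recovery shows.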
